A study of Mus musculus with 9 samples.

Results

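The genes examined were Tecta, Tectb, Otog, Otogl, Otoa and Ceacam16, 6 of the 54232 genes counted in the E14.5 mouse cochlear duct, chosen by name as genes of the tectorial membrane and of the otogelin family and matched from Ensembl identifier to mouse symbol. Their RNA was measured by bulk RNA sequencing in 9 libraries, 3 from Prdm16 WT, 3 from heterozygote (Prdm16 cGT/+) and 3 from null (Prdm16 cGT/cGT) embryos, with a library for each embryo from the dissected ducts of its left and right cochleae. The cGT allele is a gene trap, so the mutation was not limited to the cochlea, and the strain was kept on the inbred FVB/NJ background. The 3 embryos of a genotype are described as littermates, so embryos rather than pools were the replicates. The question behind the comparison was what loss of Prdm16, a transcriptional regulator made by Kölliker's organ (KO), does to the RNA of the duct.

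The tectorial membrane is an acellular gel that lies over the organ of Corti and touches the hair bundles of the outer hair cells. It is secreted during development by the cells of KO and of the prosensory region next to it. Its non-collagenous matrix is built from alpha-tectorin (Tecta) and beta-tectorin (Tectb), which are zona pellucida domain proteins, from otogelin (Otog) and otogelin-like (Otogl), which are large mucin-like glycoproteins also found in the other acellular membranes of the inner ear, and from Ceacam16, an adhesion protein that joins the mature matrix. Otoancorin (Otoa) tethers these gels to the nonsensory epithelium beneath them, in the cochlea at the spiral limbus. Mutations in these genes cause hearing loss.

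Total counts per library ranged from 24095322 to 30819118, and levels are given as CPM, counts scaled to a common library size after TMM normalization. Prdm16 itself was at 184 to 225 CPM in WT, 123 to 151 CPM in heterozygote and 19.1 to 27.4 CPM in null ducts, and each library fitted its label. The library of null embryo 3 stood apart. Acan, the cartilage proteoglycan aggrecan, was at 501 CPM there and at no more than 7.02 CPM in any other library, and the summed level of 7 mesenchyme markers was 1382 CPM there against 30.7 and 58.0 CPM in the other null embryos. The WT libraries 1, 2 and 3 had mesenchyme sums of 448, 884 and 102 CPM and heterozygotes 43.1 to 90.2 CPM, and 4 endothelial markers summed to 61.5 to 74.7 CPM in WT embryos 1 and 2, 43.1 CPM in null embryo 3 and no more than 5.23 CPM elsewhere. The epithelial markers of the duct were present in every library, with 8 prosensory markers at a summed 891 to 1333 CPM and 6 roof markers at 8012 to 14199 CPM.

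The genes whose RNA changed in opposite directions, Tecta and Tectb, are introduced by the sequence before their start sites, in RefSeq coordinates of GRCm38.p6, shown so that their upstream regions can be compared. RefSeq places starts of Tecta at 42401690 and 42399947 of chromosome 9. The window printed is chr9:42401691-42401940 on the minus strand, before the outermost start. The window of Tectb is chr19:55180476-55180725 on the plus strand. Each is 250 bases, 5′ to 3′, and ends at the base before the start. Capitals mark the only match to a searched motif, TTATCT.
Tecta: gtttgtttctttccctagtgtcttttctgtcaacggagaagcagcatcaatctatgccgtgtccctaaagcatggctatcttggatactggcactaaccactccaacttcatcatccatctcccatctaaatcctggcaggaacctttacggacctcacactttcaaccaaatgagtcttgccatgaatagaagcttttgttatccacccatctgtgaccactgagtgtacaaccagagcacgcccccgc
Tectb: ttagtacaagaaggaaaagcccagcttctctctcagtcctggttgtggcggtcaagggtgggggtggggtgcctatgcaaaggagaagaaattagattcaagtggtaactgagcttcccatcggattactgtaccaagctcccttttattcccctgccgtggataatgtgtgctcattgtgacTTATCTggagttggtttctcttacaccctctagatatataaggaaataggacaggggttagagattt

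Of the 6 genes, 4 had a window in the RefSeq promoter table, namely Tecta, Tectb, Otog and Otoa. Their windows were searched on both strands for short motifs. The TATA box was searched as TATAAA. The core motif of SOX factors was searched as AACAAT. An E-box was searched as CACCTG. The core that the zinc fingers of the PRDM16 paralogue MECOM bind, which overlaps the motif of GATA factors, was searched as AGATAA. The AGATAA core was found once, on the opposite strand of Tectb as TTATCT at bases -67 to -62 from the start, and 9.99% of 32851 promoter windows of the same length hold it. The E-box was found once, in Otog as CAGGTG at bases -250 to -245, against 17.2% of all windows. TATAAA, present in 12.4% of windows, and AACAAT, present in 9.42%, were in none of the windows of the 4 genes, and neither window of Tecta nor that of Otoa held any of the searched letters. The printed windows were 47.2% GC with 5 CpG for Tecta and 46% GC with 3 CpG for Tectb. The other Tecta window, before the start at 42399947, which is nearer the GENCODE start, was 43.2% GC with 2 CpG, so which of the genes is higher on either measure depends on the start used. The median of all promoters was 52.4% GC with 6 CpG.

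In mm10 the genes lie apart, with Otog and Otoa on the plus strand and Ceacam16 on the minus strand of chromosome 7 at 46240987 to 46311434, 121081650 to 121163097 and 19852097 to 19861299. Tecta spans 42329619 to 42399929 of chromosome 9, Tectb 55180733 to 55196313 of chromosome 19 and Otogl 107760531 to 107912134 of chromosome 10. Their merged exons add up to 7411 bases in Tecta, 3820 in Tectb, 10349 in Otog, 8763 in Otogl, 8439 in Otoa and 1635 in Ceacam16, and levels of different genes are compared below only as CPM per kb of exon. Reads are counted over exons, and 304 exon bases of Tecta (4.1%) are shared with an antisense transcript, Gm47629, which itself had 91 to 292 counts per library.

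The tectorins were among the most abundant RNAs of the duct. By mean CPM per kb over all 9 libraries Tecta was 36th and Tectb 41st of 33363 genes with a count, and Otog was 101st. In WT ducts Tecta stood at 389 ± 43.2 CPM per kb (SD, n = 3) and Tectb at 198 ± 10.3. Otog followed at 138 ± 14.5 CPM per kb, Otogl at 62.1 ± 4.95 and Otoa at 20.2 ± 1.95. The ranges of these 5 genes did not overlap between any neighbours of that order in WT ducts. Ceacam16 was near the floor of detection at 0.087 CPM per kb. In heterozygote ducts the order was the same, but in null ducts Tectb, at 291 to 444 CPM per kb, lay above Tecta, at 188 to 221, and the 2 ranges did not overlap.

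**Figure D1:**
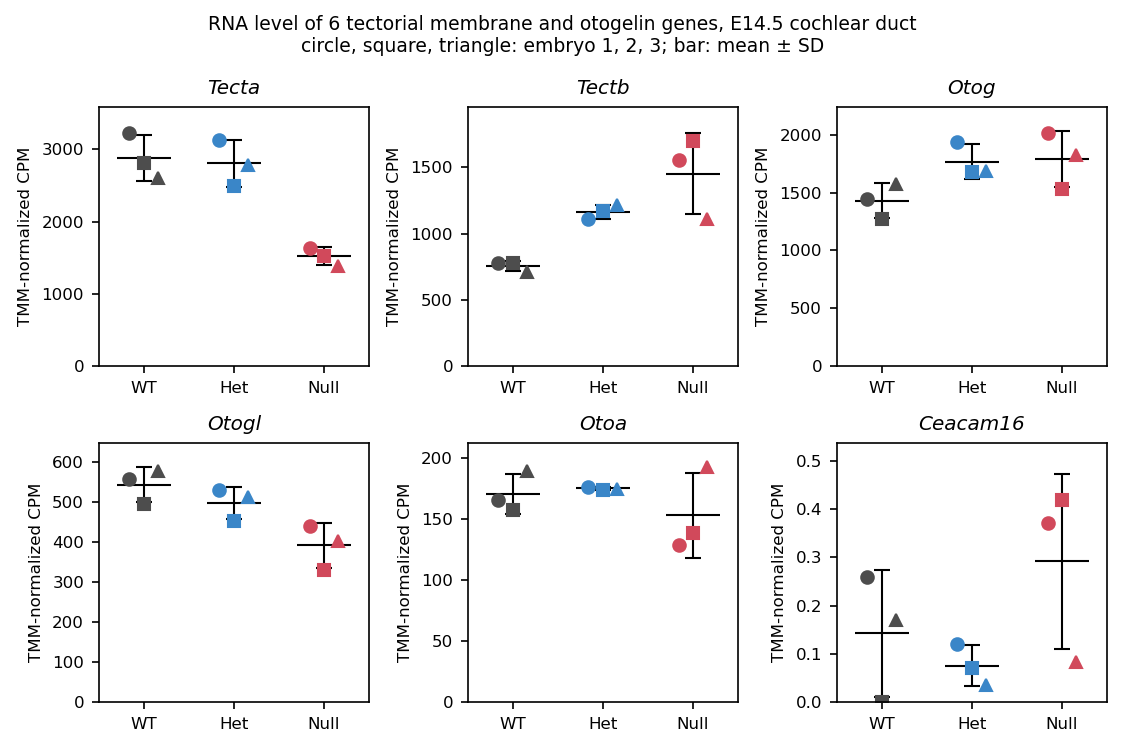
TMM-normalized CPM of the 6 genes in each embryo, by genotype, on linear axes that start at 0; points are embryos and bars are mean ± SD of 3. Tecta is lower in every null embryo (1392 to 1641 CPM) than in any other, Tectb is lowest in the 3 WT embryos (712 to 782 CPM), and Ceacam16 stays under 0.5 CPM.

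RNA of Tecta, which encodes the main structural tectorin, was about as abundant in heterozygotes as in WT and much lower in null ducts. Its level was 3229, 2812 and 2599 CPM in WT ducts 1, 2 and 3, at 3136, 2497 and 2783 CPM in heterozygotes, and at 1641, 1531 and 1392 CPM in null embryos. Every null embryo lay below all embryos of the other genotypes, while WT and heterozygote values were interleaved. The null mean was 52.8% of WT, or -0.93 as a log2 fold change (SE 0.126, 95% interval -1.22 to -0.63), and Tecta was called lower (edgeR quasi-likelihood test, Benjamini-Hochberg adjusted p = 0.0128). Against heterozygotes the null value was -0.88 (SE 0.124), again called lower (edgeR adjusted p = 0.0265). Heterozygotes differed from WT by -0.04 (95% interval -0.27 to 0.20, edgeR adjusted p = 0.917). The direction of both null comparisons held in every fit that left out 1 embryo, but the null against WT call was lost without WT embryo 1 (-0.83, edgeR adjusted p = 0.0621) or without WT embryo 2 (-0.93, edgeR adjusted p = 0.0687), and the null against heterozygote call was lost without any single heterozygote (edgeR adjusted p from 0.0653 to 0.164). Without null embryo 3 the values were -0.86 (edgeR adjusted p = 0.0124) against WT and -0.82 (edgeR adjusted p = 0.0193) against heterozygotes.

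RNA of KO markers was also lowest in null ducts. The summed level of 8 KO markers was 1154 to 1515 CPM in WT, 934 to 1162 CPM in heterozygotes and 469 to 479 CPM in null ducts. Of these markers 8 of 8 were called lower in null against WT (1.71% of all genes called in either direction). The study named them as lower in these same libraries, so that count is a description and no independent evidence of their direction. For these markers other than Snap91, the paper also reports lower levels by quantitative PCR. In heterozygotes against WT, where Tecta was not called, 1 of the 8 (Gsn) was called lower, with 0.151% of all genes called. None of the markers was at 0 in any library. The 8 are not all KO genes: the paper's single-cell list of genes enriched in KO also holds Tectb, which was called higher in null against WT. The part of KO cell number in the Tecta value was not tested, and in bulk RNA fewer cells of a type and less RNA per cell cannot be told apart.

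RNA of Tectb moved the other way. WT embryos gave 779, 782 and 712 CPM, heterozygotes 1113, 1170 and 1217 CPM, and null embryos 1553, 1696 and 1111 CPM. All heterozygote and null values lay above all WT values. Null embryo 3 fell just under the lowest heterozygote, and the other null embryos lay above every heterozygote. The null mean was 192% of WT, or 0.94 on the log2 scale (SE 0.16, 95% interval 0.56 to 1.31), called higher (edgeR adjusted p = 0.0326). Heterozygotes were at 154% of WT, or 0.62 on the log2 scale (SE 0.0617, 95% interval 0.48 to 0.76), also called higher (edgeR adjusted p = 0.0107), and Tectb ranked 3rd of 17269 genes by unadjusted p in that comparison. Null and heterozygote ducts differed by 0.32 (95% interval -0.03 to 0.67, edgeR adjusted p = 0.477).

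Tectb calls rested on few embryos although the values kept their direction throughout. The null against WT call was lost in 5 of 6 fits that left out an embryo, all but the one without null embryo 3, with values from 0.82 to 0.97 and edgeR adjusted p from 0.0671 to 0.152, and under a block for the replicate number (0.91, edgeR adjusted p = 0.0583). Without null embryo 3, the lowest of the null values, it was 1.10 (edgeR adjusted p = 0.00215), and the difference from heterozygotes was 0.48 (edgeR adjusted p = 0.0719). The heterozygote call was lost without heterozygote 2 (0.62, edgeR adjusted p = 0.0924) or 3 (0.59, edgeR adjusted p = 0.0911) and with all 9 libraries in a single fit (0.62, edgeR adjusted p = 0.412). That single fit, which includes the null embryos, called 0 genes in either direction in heterozygotes against WT. Why the call was lost there was not tested. Of 8 prosensory markers, 3 (Fgf20, Lfng and Cdkn1b) were called higher in null against WT and 0 lower (1.71% of all genes called), and 0 were called in heterozygotes against WT (0.151%). The study named all 3, and Jag1 of the same list, as changed in these same libraries, as it did Tecta and Tectb. These libraries are therefore no independent evidence of their direction. The paper also reports quantitative PCR with Fgf20, Lfng, Jag1 and Tectb higher and Tecta lower in null ducts. Its RNA or protein staining showed wider domains of Fgf20, Lfng, Jag1 and p27Kip1 (Cdkn1b), and less Tecta in KO. The summed level of the 8 prosensory markers was 891 to 951 CPM in WT, 1074 to 1092 CPM in heterozygotes and 1059 to 1333 CPM in null ducts, higher beside Tectb. Its largest members, Jag1 and Cdkn1b, had means of 399 and 246 CPM in WT and 513 and 355 CPM in null ducts. All 8 null against WT values were positive, and 7 of 8 in heterozygotes. Ntf3 was at 105% of WT in null ducts and 93.5% in heterozygotes. The sum of 6 roof markers was also higher beside Tectb, at 8012 to 9396 CPM in WT, 9609 to 10149 CPM in heterozygotes and 10814 to 14199 CPM in null ducts, and that of 4 outer sulcus markers was 632 to 736, 691 to 780 and 701 to 973 CPM. Most of the roof sum was Oc90, at 7243 to 8455 CPM in WT and 10030 to 13368 CPM in null ducts, while Lrp2 of the same list had a null against WT value of -0.44 (edgeR adjusted p = 0.261). None of the 6 roof or 4 outer sulcus markers was called in either comparison. Other tissues differed between WT and heterozygote ducts as well. The sum of 6 blood markers was 86.02 to 239 CPM in WT, 36.7 to 57.6 CPM in heterozygotes and 58.4 to 122 CPM in null ducts, with none called, and the mesenchyme sum was lower in every heterozygote than in any WT library, with 0 of 7 markers called. In the paper's single-cell data Tectb is listed as enriched in KO as well as in the prosensory domain, while the KO sum was lowest in null ducts. The part of KO, prosensory, roof, outer sulcus, blood or mesenchyme cells in the Tectb value was not tested.

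**Figure D2:**
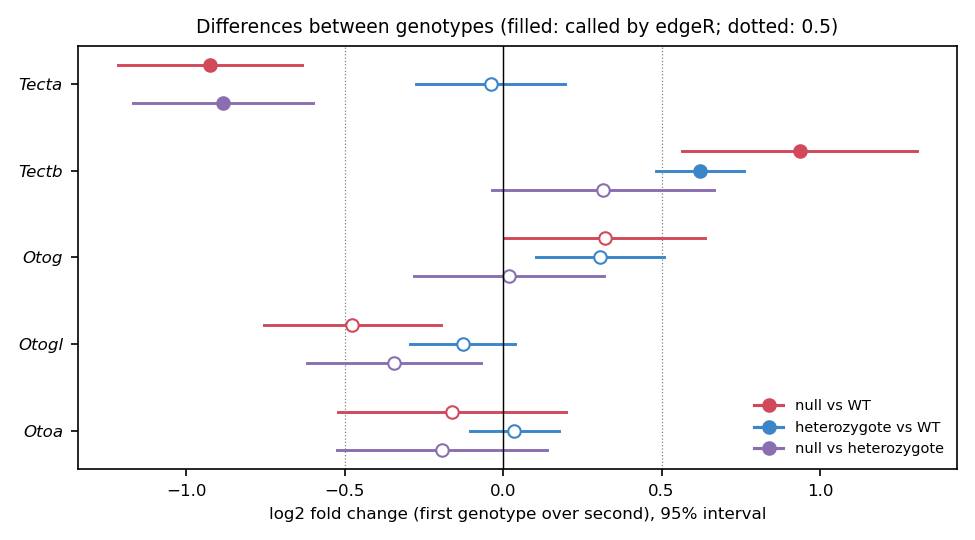
Log2 fold changes (x axis) of the 5 genes that were tested, for each pair of genotypes, with 95% intervals from edgeR; filled points were called and dotted lines mark 0.5. Tecta is called only in the comparisons with null ducts (-0.93 and -0.88), and Tectb only in those with WT (0.94 and 0.62).

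The order of the tectorins was reversed in null libraries. Tecta exceeded Tectb on the per kb scale by a ratio of 2.14, 1.85 and 1.88 in WT embryos and 1.45, 1.10 and 1.18 in heterozygotes. In null embryos the ratio was 0.545, 0.465 and 0.646. The ranges of the 3 genotypes did not overlap, and a ratio within a library does not depend on the normalization between libraries. It shows unequal change of the pair and not which member changed.

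Otogelin, the larger partner of the otogelin pair, was measured at 1443, 1273 and 1571 CPM in WT, 1940, 1675 and 1686 CPM in heterozygote and 2015, 1530 and 1824 CPM in null embryos. Heterozygotes all lay above WT, whereas null embryo 2 lay inside the WT range. Otog was not called in any comparison, and no fit gave it a log2 fold change beyond 0.5. Its log2 fold change against WT was 0.32 in null ducts (95% interval 0.003 to 0.64, unadjusted p = 0.0483, edgeR adjusted p = 0.403) and 0.31 in heterozygotes (95% interval 0.10 to 0.51, unadjusted p = 0.00746, edgeR adjusted p = 0.171). The adjusted p of the heterozygote difference was under 0.05 with DESeq2 (0.00266), without a low-count filter (0.000371) and with the replicate block (0.0497), and was 0.755 with all 9 libraries in a single fit. Null and heterozygote ducts differed by 0.02 (95% interval -0.28 to 0.32).

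Otogl, the otogelin-like gene, had its lowest values in null ducts and was not called. Its level was 557, 495 and 579 CPM in WT, 530, 452 and 512 CPM in heterozygote and 442, 332 and 404 CPM in null embryos. The 3 null embryos lay below all others, and the WT and heterozygote ranges overlapped. The null mean was 72.1% of WT, or -0.48 on the log2 scale (SE 0.12, 95% interval -0.75 to -0.20, unadjusted p = 0.00444, edgeR adjusted p = 0.127). DESeq2 (adjusted p = 0.00550) and edgeR without a low-count filter (adjusted p = 0.0486) put it under 0.05, but there the log2 fold change still fell short of the 0.5 needed for a call. Against heterozygotes it was -0.34 (95% interval -0.62 to -0.07, edgeR adjusted p = 0.346), and heterozygotes differed from WT by -0.13 (edgeR adjusted p = 0.520).

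Within each genotype the 3 embryos stood in the same order for Otog as for Otogl, although over the 9 libraries their log2 CPM had a Pearson r of -0.133. Otog exceeded Otogl per kb by 2.19, 2.18 and 2.30 in WT, 3.10, 3.14 and 2.79 in heterozygote and 3.87, 3.91 and 3.83 in null embryos. The SD of the ratio was 0.0658 in WT, 0.194 in heterozygotes and 0.0412 in null ducts around means of 2.22, 3.01 and 3.87. The 3 genotypes did not overlap, and null embryo 3, which stood apart in cartilage markers, was close to the other null embryos. Since the pair was set side by side because of its shared family, and the levels were already known, these ratios are a description and were not tested.

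**Figure D3:**
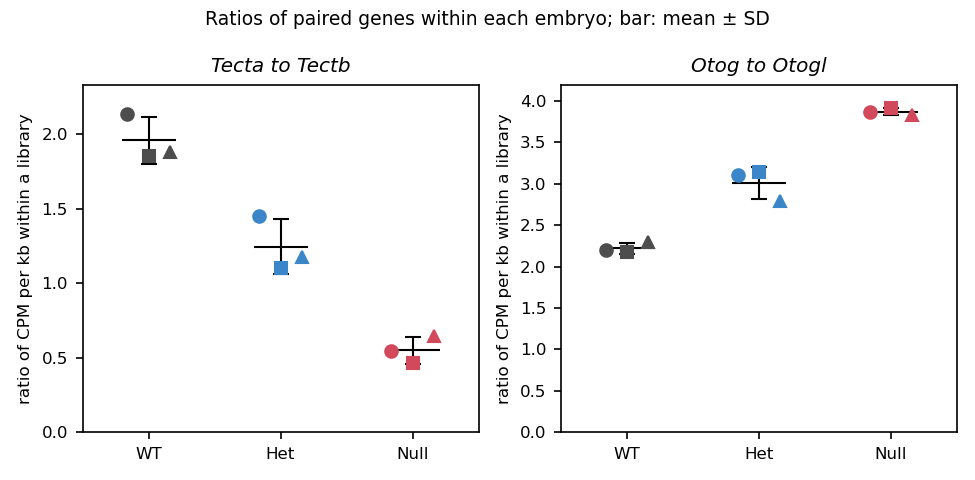
Ratio of CPM per kb of Tecta to Tectb (left) and of Otog to Otogl (right) within each embryo, on linear axes that start at 0; points are embryos and bars are mean ± SD of 3. The left ratio is 1.85 to 2.14 in WT and 0.465 to 0.646 in null embryos, and the right ratio is 2.18 to 2.30 in WT and 3.83 to 3.91 in null embryos.

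Otoa and Ceacam16 gave no call. Otoancorin RNA was at 165, 157 and 189 CPM in WT, 176, 174 and 175 CPM in heterozygote and 128, 138 and 193 CPM in null embryos. Null embryo 3 was the highest of all libraries, and the other null embryos were below every WT and heterozygote value. The log2 fold change was -0.16 in null against WT (95% interval -0.52 to 0.20, edgeR adjusted p = 0.737), 0.04 in heterozygotes against WT (95% interval -0.10 to 0.18, edgeR adjusted p = 0.865) and -0.19 in null against heterozygotes (95% interval -0.52 to 0.14, edgeR adjusted p = 0.622). Without null embryo 3 it was -0.36 against WT (edgeR adjusted p = 0.130) and -0.39 against heterozygotes (edgeR adjusted p = 0.0702). Neither fit called it.

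Ceacam16 did not pass the filter on low counts in any comparison of all libraries. It had 7, 0 and 5 counts in WT, 3, 2 and 1 in heterozygote and 9, 13 and 2 in null embryos. Summed over embryos these were 12 counts in WT (exact 95% Poisson interval 6.2 to 21), 6 in heterozygotes (2.2 to 13.1) and 24 in null ducts (15.4 to 35.7), intervals that cover counting error only. A count of 3 corresponds to 0.0973 to 0.125 CPM in these libraries, and 380 of its exon bases (23.24%) are shared with an opposite-strand gene, Gm19345, that had 2 to 10 counts. The heterozygote and null intervals did not overlap, but the null embryos ranged from 2 to 13 counts, into the range of both other genotypes. Without the filter the log2 fold change was 1.01 in null against WT (edgeR adjusted p = 0.741), -0.89 in heterozygotes against WT (edgeR adjusted p = 0.792) and 1.90 in null against heterozygotes (edgeR adjusted p = 0.529). It passed the filter in 4 of the fits that left out an embryo, with edgeR adjusted p from 0.203 to 0.923, and no fit called it.

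Read by comparison, 5 of the 6 genes were tested in each. In null against WT ducts, 1 was called higher and 1 lower, where 1.71% of 17168 genes were called (adjusted p under 0.05, with a log2 fold change beyond 0.5 in either direction). In heterozygotes against WT, 1 was called higher and 0 lower, with 0.151% of 17269 genes called. In null ducts against heterozygotes, 0 were called higher and 1 lower, with 0.615% of 17067 genes called. The median log2 fold change of the 5 genes was -0.16, 0.04 and -0.19 in these comparisons, beside 0.01, 2.94e-05 and 0.01 over all genes tested. The comparisons share libraries in pairs, so their values are not independent of each other.

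The position of the heterozygote mean relative to WT and null differed among the genes. On the log2 CPM scale it stood at 4.17% of the way for Tecta, 26.6% for Otogl, 67.9% for Tectb and 96.1% for Otog. For Otoa it was outside the interval, above WT while null was below it (-23.4%). The differences between genes in this share were not tested, and Otog, Otogl and Otoa were not called in any comparison.

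**Figure D4:**
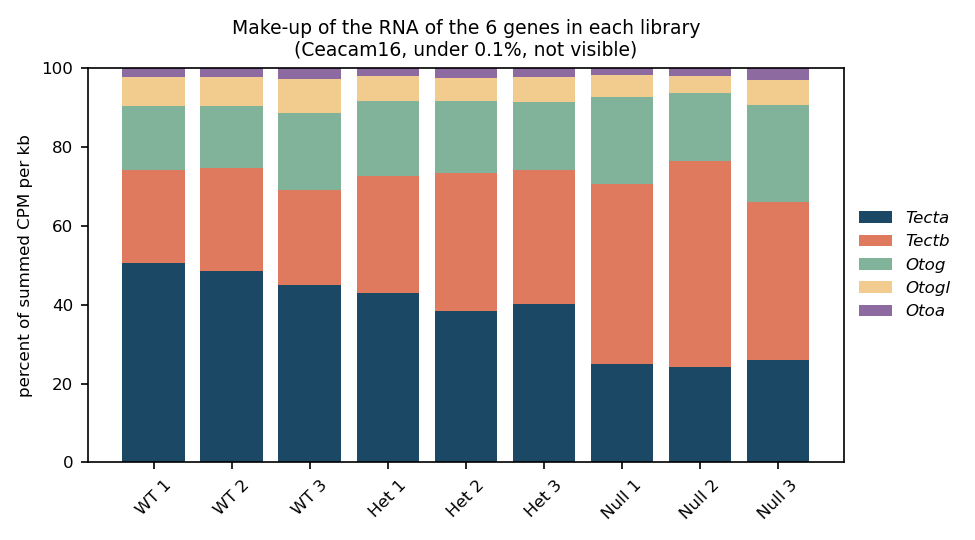
Share of each gene in the summed CPM per kb of the 6 genes, as stacked bars for the 9 libraries. Tecta takes 45.1 to 50.5% in WT, 38.4 to 43% in heterozygote and 24.2 to 25.9% in null libraries, and Tectb 23.6 to 26.2%, 29.6 to 34.9% and 40.2 to 52.1%.

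The summed level of the 6 genes overlapped between WT and null ducts, while the shares of the tectorins did not. The 6 genes summed to 807 ± 47.6 CPM per kb in WT, 932 ± 53.2 in heterozygote and 822 ± 86.7 in null ducts (SD, n = 3 each), with the range of null ducts, 724 to 889, enclosing that of WT, 778 to 862. Heterozygote sums, at 877.3 to 983.5, all lay above the WT range. Tecta made up 48% of that sum in WT, 40.5% in heterozygotes and 25% in null ducts. Tectb made up 24.6%, 32.9% and 46% of it. Otog made up 17.1% in WT and 21.2% in null ducts, with overlapping ranges.

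Across the 9 libraries, log2 CPM of Tecta and Otogl varied together (Pearson r = 0.841), and both varied against Tectb (r = -0.644 and -0.778). These correlations are descriptions over 9 libraries that share their genotype groups, and carry no test. Among 14809 genes with a mean over 1 CPM, the genes whose pattern was most like that of Tecta were Pkd1l1 (r = 0.9971), Cdh4 (0.9951) and Spock1 (0.9916). Spock1 is on the KO marker list used here, and the paper's single-cell list of genes enriched in KO holds both Spock1 and Cdh4. Those most like Tectb were Slc29a1 (0.9894), Nxpe3 (0.9875) and Fgf20 (0.9793), the last a prosensory FGF ligand at 14.4 CPM in WT, 26.9 CPM in heterozygote and 36.8 CPM in null ducts. The genes nearest to Otog were Nlgn2 (0.9707), Shank2 (0.9618) and Fam102a (0.9592). Otogl was nearest to Camk4 (0.9784), Ncoa1 (0.9760) and Gm26507 (0.9707), and Otoa to Plpbp (0.9280), Zbtb7c (0.9169) and Irf2bpl (0.9093).

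A companion list of 13 genes held the collagens of the tectorial membrane and other genes chosen for a link to the extracellular matrix of the inner ear or its attachment. In null against WT ducts 12 of them were tested, 0 were called higher and 1 lower (1.71% of all genes called), and none was called in heterozygotes against WT (0.151%) or in null against heterozygotes (0.615%). The gene called lower was Epyc, which encodes the small leucine-rich proteoglycan epiphycan. Of its exon bases, 1041 (40.65%) are shared with an opposite-strand transcript, Gm10754, that had 0 to 15 counts per library. Epyc was at 232, 144 and 123 CPM in WT, 137, 36.0 and 71.3 CPM in heterozygote and 24.0, 37.1 and 59.3 CPM in null embryos. On the log2 scale null ducts differed from WT by -2.05 (SE 0.349, edgeR adjusted p = 0.0316). All null values lay below all WT values, and the heterozygotes spread over both. The call was lost in 5 of 6 fits that left out an embryo, all but the one without null embryo 3 (-2.44, edgeR adjusted p = 0.00793), with values from -2.23 to -1.74 and edgeR adjusted p from 0.0526 to 0.124, and with the replicate block (-2.08, edgeR adjusted p = 0.127). Hpn, a membrane serine protease needed for a normal tectorial membrane, was at 40.7 to 57.2 CPM in all 9 libraries with a null against WT value of 0.04 (95% interval -0.30 to 0.37). Strc, which encodes stereocilin, the link between outer hair cell bundles and the tectorial membrane, did not pass the filter with all libraries. It had 0, 0 and 29 counts in WT, 1, 1 and 6 in heterozygote and 1, 0 and 64 in null embryos, so that WT embryo 3 and null embryo 3 held nearly all of them. The sum of 4 hair cell markers was 69.0 CPM in null embryo 3 and 28.0 to 43.2 CPM elsewhere. Of these, Pou4f3 (12.8 and 14.0 CPM) and Gfi1 (2.71 and 4.31 CPM) were highest in WT embryo 3 and null embryo 3. Atoh1 and Myo7a were not highest in both.

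In null ducts the collagen values turned on null embryo 3. Col2a1, the chain of type II collagen, was at 10051 CPM there and at 4489 to 5487 CPM in the other 8 libraries. Col11a2 was at 1603 CPM there against 380 to 563 CPM elsewhere, and Col9a1 at 1484 against 585 to 784 CPM. Col11a1 was at 1604 CPM in null embryo 3 but at 388 and 310 CPM in the other null embryos, below the WT range of 587 to 696 CPM. Heterozygotes, at 553, 459 and 493 CPM, also all lay below the WT range. Their value against WT was -0.37 (95% interval -0.55 to -0.19, edgeR adjusted p = 0.0796), not called. DESeq2 gave it an adjusted p of 6.27e-05, with a log2 fold change short of 0.5. The null against WT value of Col11a1 was 0.24 (95% interval -1.06 to 1.53) with all libraries, and -0.90 without null embryo 3, where it was called lower (edgeR adjusted p = 0.0127). The tectorins and otogelins showed no such rise in null embryo 3, whose Tecta, Tectb, Otog and Otogl values were within or below the range of the other 8 libraries. The part of cartilage or mesenchyme in the collagen values was not tested.

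**Figure D5:**
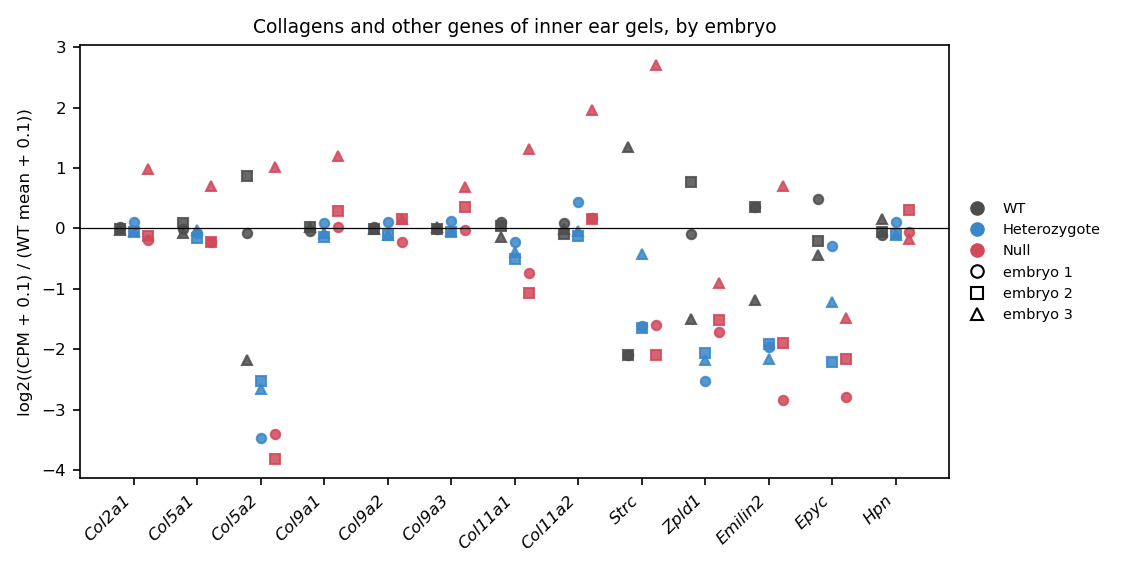
Log2 of CPM + 0.1 relative to the WT mean + 0.1 (y axis) for the 13 companion genes in each embryo, coloured by genotype, with embryo numbers as symbols. The triangle of null embryo 3 lies above the other libraries for the type II, IX and XI collagens (by little for Col9a2, 3006 CPM against at most 2994 CPM), and Epyc is lowest in the null embryos on average (40.1 CPM against 166 CPM in WT).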

How the data were processed

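The authors made TruSeq mRNA libraries from the cochlear ducts, sequenced single reads, aligned them to mm10 with STAR and compared genotypes with DESeq2. The submitters' processing notes also name cutadapt 1.13 and HTSeq 0.6.1p1, and the methods name Cufflinks. The deposited values are raw counts of reads per Ensembl gene, not normalized. The strand setting and annotation release are not given in the sources used here. Without a known strand setting, reads of overlapping antisense genes cannot be told apart.

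Gene names, mm10 positions and exon lengths came from GENCODE M21, which named 54165 of 54232 genes, and promoters from RefSeq (GRCm38.p6). Counts were tested with edgeR 4.0.16 in R 4.3.3 (TMM, filterByExpr with a minimum count of 10, quasi-likelihood test), fitting 6 libraries at a time for each genotype pair, with p-values adjusted over all genes tested. A gene was called at an adjusted p under 0.05 with a log2 fold change beyond 0.5 in either direction. With 3 embryos per genotype, p-values set the difference between genotypes against the spread between embryos, which edgeR estimates with information shared across genes. Total counts of 24095322 to 30819118 per library set the counting precision, and 3 counts served as the floor. No libraries of a genotype were duplicates (chi-square per gene of 5.70 or more). The procedure was tested on simulated data. Its limit for passing was lowered after a first run fell short of it, and recovery was poorer for genes drawn with more spread between embryos, so a gene that was not called may still differ.

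Named genes are the 6 members, Prdm16, the companion list and, for each tested member, the 3 genes with the highest Pearson r of log2 CPM (prior count 2) over 9 libraries. Members and lists were chosen with earlier results of these data known. Alternatives were DESeq2 1.42.0, RLE or total-count normalization, no filter or a mean count over 100, a joint fit of the 9 libraries, a block for the replicate number, and leaving out each embryo.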

Additional observations from a re-analysis of the deposited data

How the results depend on the processing

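None of Tecta, Tectb, Otog, Otogl and Otoa changed direction under DESeq2, RLE or total-count normalization, the other filters, the single fit of 9 libraries or the replicate block. With the replicate block, Tectb in null against WT was 0.91 (edgeR adjusted p = 0.0583), leaving 0 members called higher and 0 companion genes called lower, and Col11a1 turned to -0.21. The same block called 65 genes higher and 68 lower in null against WT (158 and 135 without it), 32 and 165 in heterozygotes against WT (9 and 17), with 4 companion genes lower (Col5a2, Zpld1, Emilin2 and Epyc), and 22 and 30 in null against heterozygotes (50 and 55). The embryos of one number are not shown to be paired: the 9 correlations of same-numbered libraries of different genotypes ran from -0.284 to 0.202. In the fit of all 9 libraries, Tectb in heterozygotes was 0.62 (edgeR adjusted p = 0.412), leaving 0 members called higher, and all genes called numbered 260 higher and 208 lower, 0 and 0, and 79 and 85 in the same order of comparisons. DESeq2 called 329 and 280, 54 and 243 (3 companion genes lower, those 4 without Epyc), and 195 and 166. Without a low-count filter the counts were 267 and 209, 109 and 575 (the same 4 companion genes lower), and 227 and 139. Col2a1 in heterozygotes was 0.001046 among genes with a mean count over 100. The cause of these changes was not tested.

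Leaving out each embryo in turn gave, in null against WT, -0.99 to -0.83 for Tecta, 0.82 to 1.10 for Tectb, -0.90 to 0.62 for Col11a1, -0.16 to 0.52 for Col2a1, -0.23 to 0.32 for Col5a1, -3.63 to 0.32 for Col5a2, -0.0201 to 0.16 for Col9a2 and -0.11 to 0.14 for Hpn. In heterozygotes against WT it gave -0.13 to 0.0512 for Tecta, 0.58 to 0.66 for Tectb, -0.0193 to 0.12 for Otoa, -0.0830 to 0.22 for Col11a2, -0.0563 to 0.0277 for Col2a1, -0.11 to 0.00361 for Col9a1, -0.0465 to 0.0433 for Col9a3 and -0.11 to 0.0556 for Hpn. In null against heterozygotes it gave -0.96 to -0.80 for Tecta, -0.0730 to 0.12 for Otog, -0.52 to 1.00 for Col11a1, -0.16 to 0.53 for Col2a1, -0.14 to 0.40 for Col5a1, -0.79 to 2.93 for Col5a2, -0.30 to 2.05 for Emilin2 and -0.0823 to 0.17 for Hpn. Members called ran from 0 to 1 in each direction that had a call, and companion genes called lower from 0 to 2 in null against WT and 0 to 3 in heterozygotes. All genes called ran from 31 to 214 higher and 37 to 232 lower in null against WT, 0 to 47 and 0 to 458 in heterozygotes against WT, and 5 to 81 and 6 to 101 in null against heterozygotes. Epyc in null against WT ran from -2.44 to -1.74 over these fits, of which only the one without null embryo 3 called it. Low counts kept Ceacam16 and Strc out of the fits of all libraries with the filter. Without the filter and in the leave-one-out fits that they entered, their edgeR adjusted p ran from 0.203 to 0.923 and from 0.262 to 0.949.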

Other observations

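Zpld1, Emilin2 and the collagen gene Col5a2 of the companion list varied several fold among WT embryos. Zpld1, which encodes a zona pellucida domain protein of the cupula, was at 10.8, 19.8 and 4.0 CPM in WT embryos, 1.93 to 2.70 CPM in heterozygotes and 3.47 to 6.15 CPM in null embryos. Its heterozygote against WT value was -2.27 (edgeR adjusted p = 0.0757), and it was called lower with DESeq2 (adjusted p = 0.0169), with the replicate block (-2.07, edgeR adjusted p = 0.0325), without a low-count filter and without WT embryo 3 (-2.68, edgeR adjusted p = 1.31e-04). Emilin2, an extracellular glycoprotein gene, was at 4.22, 4.19 and 1.39 CPM in WT, 0.658 to 0.792 CPM in heterozygotes and 0.371, 0.807 and 5.40 CPM in null embryos. Col5a2 was at 48.6, 93.1 and 11.2 CPM in WT, 4.53 to 8.75 CPM in heterozygotes and 4.74, 3.55 and 103.5 CPM in null embryos. Emilin2 and Col5a2, at -2.14 and -2.83 in heterozygotes against WT (edgeR adjusted p = 0.0651 and 0.0784), were called lower under the same 4 alternatives. For each of these genes WT embryo 3 was the lowest of the WT embryos and still above every heterozygote. WT embryos 1 and 2 and null embryo 3, which are the highest 3 libraries for Zpld1, Emilin2 and Col5a2, also have the highest endothelial and mesenchyme sums. The part of those tissues in the values was not tested.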
